A study of Mus musculus with 18 samples.

Results

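The 10 genes described here are the mouse EGF receptor ligands Ereg, Areg, Hbegf, Tgfa, Btc and Epgn, the receptors Egfr, Erbb2 and Erbb3, and Errfi1, an inhibitor of these receptors. They are 10 of the 32285 genes in the deposited single-cell RNA matrices and were taken by symbol. They were selected on earlier results of these data, chosen by the measured level of Ereg in fibroblast-like cells, higher in expanded than in control skin, so that contrast is given as a description with no test. The study compared mouse back skin that had been stretched by a hydrogel expander placed under the skin near the neck with control skin. Mice of both arms had surgery: a cut near the tail and a tunnel under the skin to the neck, into which only the expanded mice (EXP) received the hydrogel; the control mice (CTRL) received no expander. Skin was taken on day 1, day 2 or day 4, the mice of 1 arm and round were pooled in 1 tube, and live DAPI-negative cells were sorted for 10x 3′ libraries. Strain, sex and age are not given in the sources used here. Each arm has 5 libraries: 2 sequencing rounds on day 1, 2 on day 2, and 1 on day 4. A library is therefore a pool of mice, and p-values measure the spread between pools, except in tests over mice. Those tests take mice that shared 1 tube and library as separate, so their p-values do not measure the spread between pools. They also leave out day 1 round 1. Hashing antibodies marked 28 mice in 8 of the libraries; round 1 of day 1 had no hashing. For the control of day 1 round 2 the titles of the RNA and hashing samples are exchanged against their descriptions, and the descriptions were followed.

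The libraries held 17726739 to 75470722 unique molecular identifiers (UMIs) in genes, and 44792 cells passed the filters, 27921 control and 16871 expanded. Of the 39 clusters, 34 could be named from marker genes and are called by class and number, such as fibroblast-like cluster 21. A level is the summed UMIs of a gene in 1 library's cells of a cluster, scaled to 1000000 UMIs of those cells (CPM), given for libraries with at least 20 such cells. Because the libraries count 3′ ends, CPM does not depend on transcript length. In total 361 barcodes occurred in more than 1 library, 230 of them among the kept cells. Macrophage-like cells of the day 1 round 1 expanded library stand nearer to those of the control libraries for Ereg and Egfr, and these results are given with and without it.

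The EGF family ligands are made as membrane-anchored precursors. Sheddases such as ADAM17 release the soluble growth factor, which binds EGFR on the same or neighbouring cells. Ligand binding pairs EGFR with another EGFR or with ERBB2 or ERBB3 and starts the RAS-ERK and PI3K-AKT cascades. ERBB2 has no known soluble ligand, and ERBB3, a receptor of neuregulins, has a weak kinase and signals through its partner. ERRFI1, also known as MIG6, binds the active kinase and shuts it down, and its gene is itself induced by ERK signalling. In skin the family is best known for driving keratinocyte proliferation and wound closure.

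Epgn, Ereg, Areg and Btc lie close together on chromosome 5 in build mm10 (GRCm38): Epgn at chr5:91027464-91035215, Ereg at chr5:91074622-91093646 and Areg at chr5:91139599-91148432 on the forward strand, and Btc at chr5:91357261-91402994 on the reverse strand. RefSeq promoter sequence (GRCm38.p6, 250 bases before to 50 after a gene's start) was matched for 7 of the 10 genes, all except Ereg, Hbegf and Erbb3; of 2 entries for Errfi1, the one that holds TGACGTCA is shown. The promoters of Areg and Errfi1 are shown because both genes passed the test below as lower in some cells of expanded skin and both sequences hold TGACGTCA, and that of Epgn because it is the neighbour of Ereg and Areg. Each is printed 5′ to 3′ along the gene's strand, with the cAMP response element TGACGTCA and the TATA motif TATAAA in capitals.
Areg: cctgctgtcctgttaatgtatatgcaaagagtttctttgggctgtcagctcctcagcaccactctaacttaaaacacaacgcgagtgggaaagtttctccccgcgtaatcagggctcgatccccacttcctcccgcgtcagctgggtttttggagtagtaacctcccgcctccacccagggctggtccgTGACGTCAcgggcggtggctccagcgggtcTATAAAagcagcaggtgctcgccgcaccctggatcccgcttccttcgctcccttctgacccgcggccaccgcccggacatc
Errfi1: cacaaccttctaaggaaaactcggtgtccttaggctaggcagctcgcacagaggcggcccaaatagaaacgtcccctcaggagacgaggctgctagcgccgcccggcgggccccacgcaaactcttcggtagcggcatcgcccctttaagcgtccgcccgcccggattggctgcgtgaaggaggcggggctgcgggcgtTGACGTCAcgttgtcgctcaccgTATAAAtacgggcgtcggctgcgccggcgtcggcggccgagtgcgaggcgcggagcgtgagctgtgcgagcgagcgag
Epgn: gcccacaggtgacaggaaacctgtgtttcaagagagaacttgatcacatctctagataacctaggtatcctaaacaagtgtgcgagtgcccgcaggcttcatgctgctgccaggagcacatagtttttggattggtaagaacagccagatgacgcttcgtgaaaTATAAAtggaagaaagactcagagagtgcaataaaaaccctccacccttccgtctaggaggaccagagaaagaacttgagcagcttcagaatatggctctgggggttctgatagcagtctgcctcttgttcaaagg
The Areg sequence is chr5:91139349-91139648, the Errfi1 sequence is chr4:150854820-150855119 and the Epgn sequence is chr5:91027267-91027566, all on the forward strand. The Areg and Errfi1 sequences shown, both chosen for holding TGACGTCA, have it 61 and 51 bases before the start, with a TATAAA 31 and 28 bases before it. The other Errfi1 entry, chr4:150853546-150853845, holds neither. The windows of Tgfa, Btc, Epgn, Egfr and Erbb2 hold no TGACGTCA. Of these genes, Egfr also passed the test below as lower, in macrophage-like cells. Both strands were searched, and TGACGTCA is its own reverse complement. TGACGTCA is held by 588 of 32851 promoters of this length (1.79%) and TATAAA by 4473 (13.6%). The AP-1 motif TGACTCA, which 1709 promoters hold (5.20%), was in none of the windows of the 7 matched genes. A match describes these letters only.

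Across clusters the ligands were spread over different cell types, while Errfi1 was read in nearly all of them. Ereg was read mainly in fibroblast-like cells, in skeletal muscle-like or satellite-like cluster 35 of control skin and, in expanded skin, in macrophage-like cells. Suprabasal keratinocyte-like cluster 25 held it at a low level in both arms. Areg was highest in lymphoid and suprabasal cells, Hbegf in endothelial-like, keratinocyte-like, Schwann-like and some macrophage-like cells, Epgn in keratinocyte-like cells and Btc in Schwann-like cells. Egfr was highest in fibroblast-like cells and present in keratinocyte-like ones, and Erbb3 was highest in Schwann-like cells and melanocyte-like cells.

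**Figure D1:**
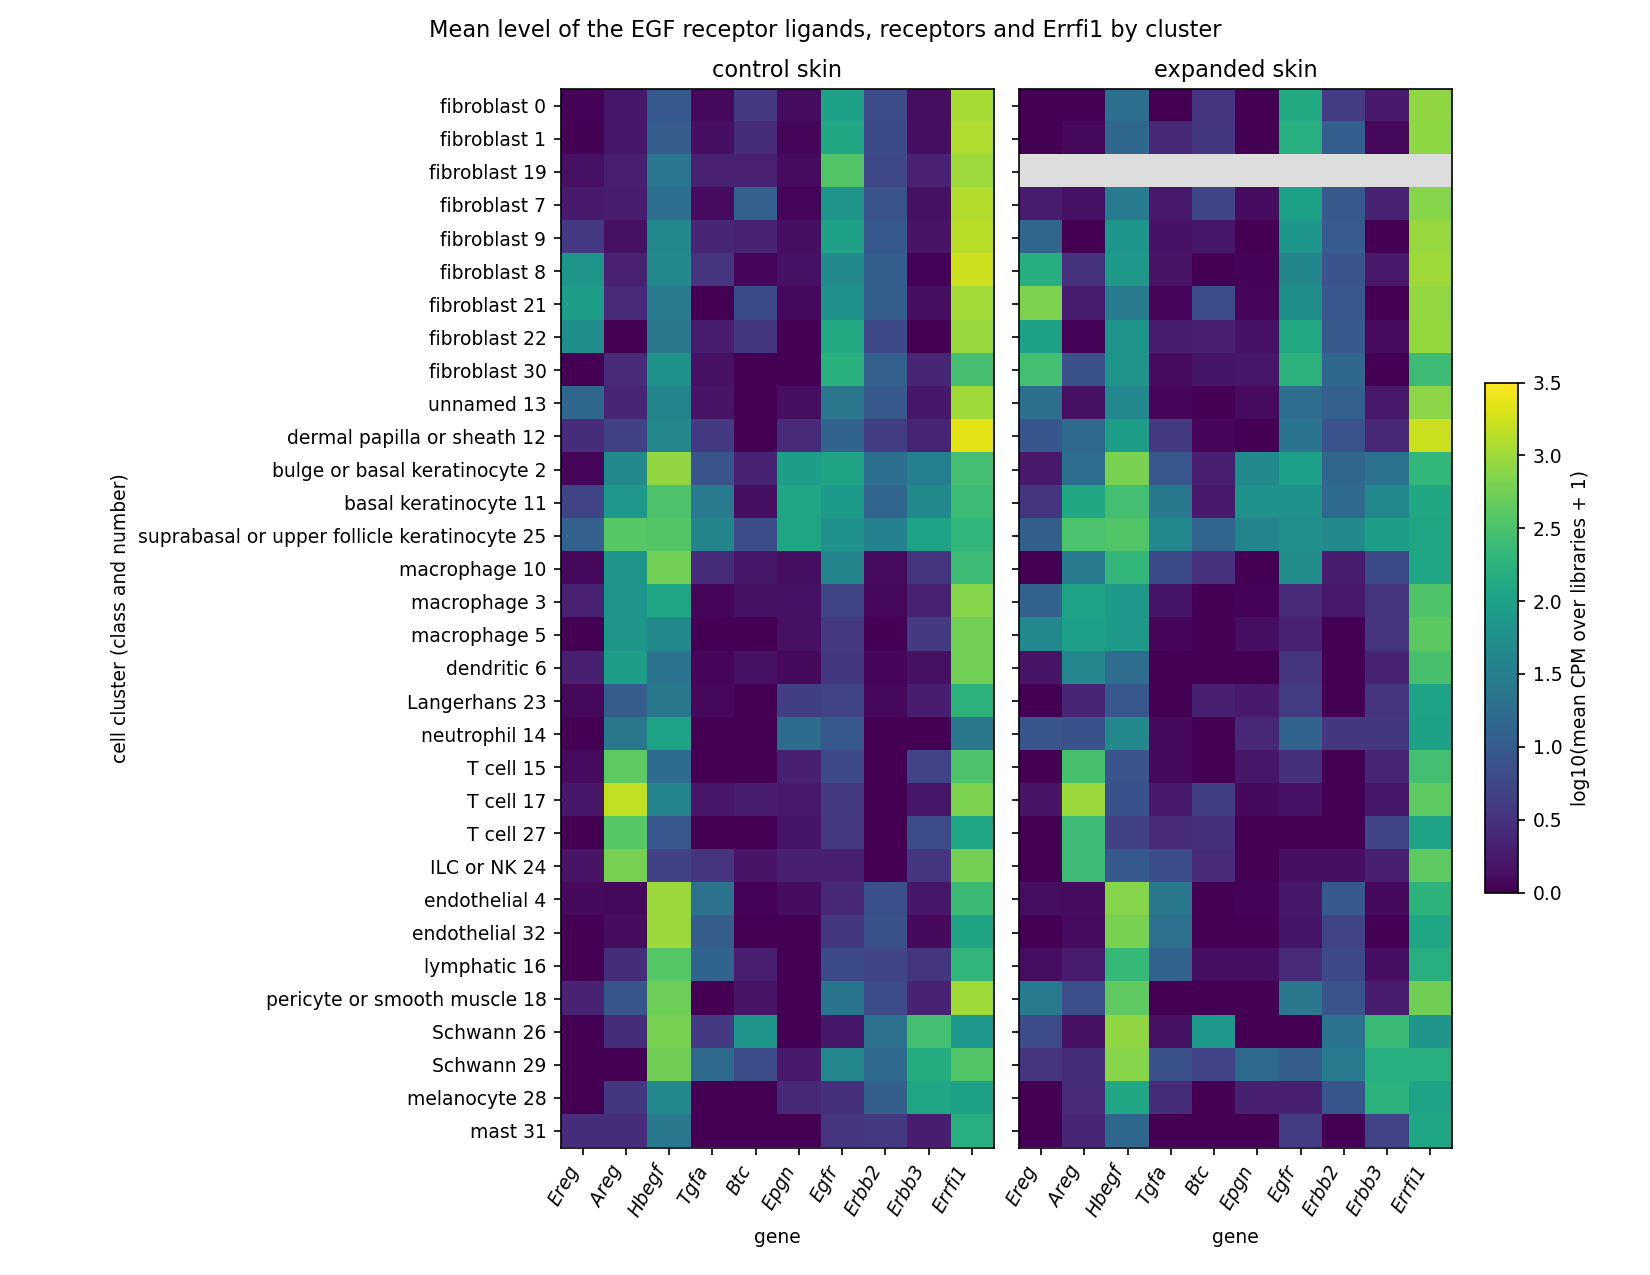
Mean level of each of the 10 genes (columns) by cluster (rows) in control and expanded skin, as log10 of the mean CPM over libraries plus 1. Brighter cells stand for higher levels and grey for clusters where no library had enough cells. Clusters 20 and 33 to 38 are not shown. Errfi1 is bright in nearly every row, whereas the ligands are bright in fewer rows. Ereg is brightest in fibroblast-like clusters 8 and 21 and, in expanded skin, also in cluster 30. Areg is brightest in T cell-like cluster 17. Hbegf is bright in endothelial-like, keratinocyte-like, Schwann-like and some other clusters, and Epgn in keratinocyte-like ones.

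Ereg encodes epiregulin, a ligand of EGFR and ERBB4 with low affinity and long-lasting signalling. Fibroblast-like cells held several clusters whose leading genes include those of other marker lists, so they are compared by cluster number, and all Ereg comparisons in them are descriptions. In cluster 21, led by Igfbp2, Mme, Sema3a and Wnt5a, Ereg was 43.4, 109.6, 120.8, 89.0 and 97.0 CPM in the control libraries of day 1 (rounds 1 and 2), day 2 (rounds 1 and 2) and day 4. In the expanded libraries, in the same order, it was 300.4, 550.7, 580.7, 1094 and 663 CPM. Every expanded library was above every control library, with means of 92.0 ± 29.8 and 638 ± 289 CPM (SD, n = 5 each), a 6.93-fold difference. Ereg is itself 1 of the 10 leading genes of cluster 21 and took part in forming it.

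In fibroblast-like cluster 8, led by Coch, Tnn and Postn, Ereg was 79.9, 69.1, 59.0, 91.1 and 47.8 CPM in control libraries and 68.0, 117.9, 273.8, 131.5 and 160.8 CPM in expanded ones. The means were 69.4 ± 17.01 and 150 ± 76.7 CPM, higher with expansion in 4 of 5 pairs of the same day and round, and the groups overlapped through the day 1 round 1 expanded library. Control skin thus already held Ereg in clusters 8 and 21, at levels of the same order. Cluster 22, led by Tnc, Saa3, Cxcl5 and Timp1, had 7.41 and 102 CPM in its control libraries of day 2 round 2 and day 4, where 1 cell gave 57 of the 61 UMIs of day 4. Its expanded libraries had 9.46, 30.1, 26.1 and 28.1 CPM on days 1 and 2, against 402.9 CPM on day 4. Cluster 30, led by Apod, Ccl11 and Gpc3, had no Ereg UMI in any of its 5 control libraries, where 3 counts would be 6.25 to 24.7 CPM. Of its 4 expanded libraries both of day 1 were at 0, day 2 round 1 was at 45.1 CPM and day 4 at 1084 CPM.

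**Figure D2:**
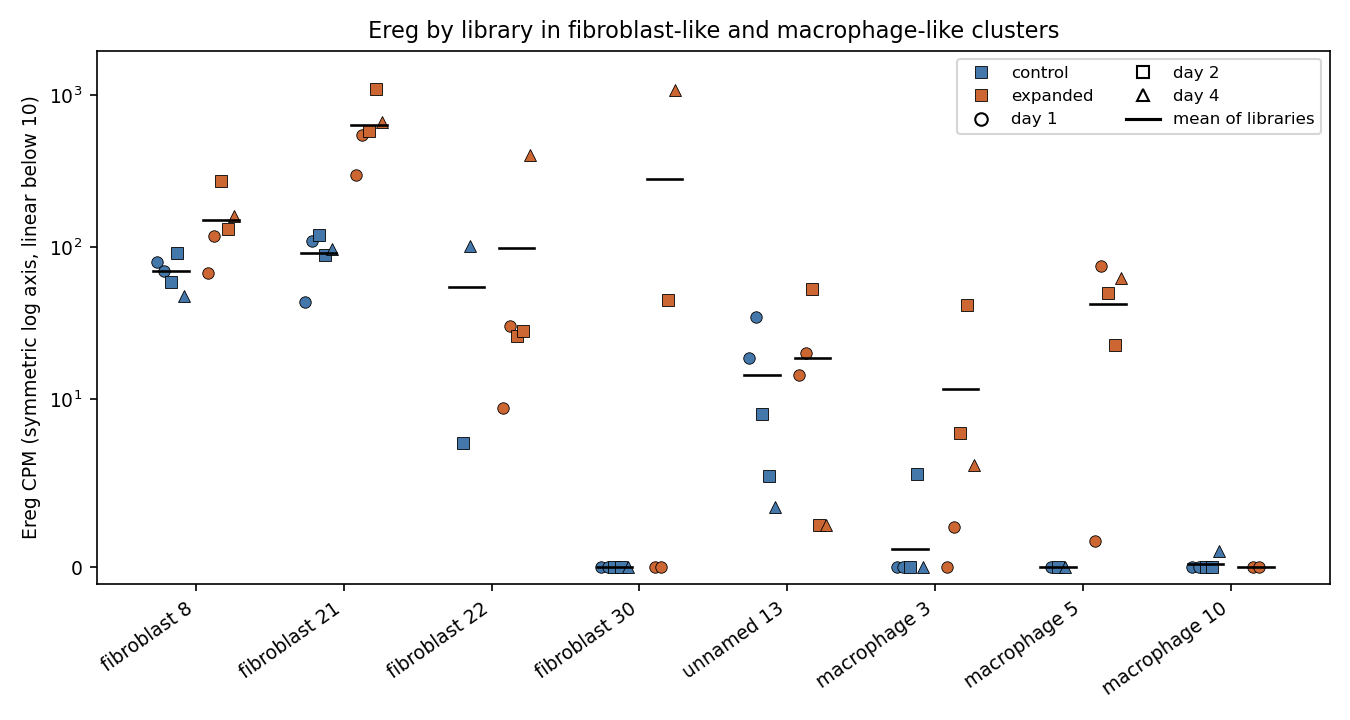
Ereg in CPM (symmetric log axis, linear below 10) in fibroblast-like and macrophage-like clusters, with 1 point per library, colour for arm, shape for day and a bar at the mean of the libraries. In cluster 21 the expanded libraries lie between 300.4 and 1094 CPM and the control libraries between 43.4 and 120.8 CPM, and in macrophage-like cluster 5 the 3 control libraries are at 0.

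Summed over all fibroblast-like cells, Ereg was 2.52, 10.8, 7.47, 14.5 and 9.83 CPM in control libraries and 39.5, 108, 200.8, 255.9 and 404.4 CPM in expanded ones. This 22.3-fold difference of the sum is larger than that of cluster 21 or cluster 8, and the cells behind it differed between arms. By library, fibroblast-like cells supplied 74.2% ± 7.99 of all Ereg UMIs in control and 81.99% ± 7.12 in expanded skin (SD, n = 5 each). With each class given an equal number of cells, these shares were 12.5% and 60.02%. Clusters 8, 21, 22 and 30 together made up 1753 (15.3%) of the 11466 control fibroblast-like cells and 2158 (71.2%) of the 3029 expanded ones. They held 93.8% of the control and 99.4% of the expanded Ereg UMIs of these cells. Cluster 21 alone, 11.4% of the expanded fibroblast-like cells, held 54.3% of their Ereg UMIs, and cluster 8, 31.3% of the cells, held 21.05%.

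The Ereg UMIs were concentrated in few cells. In expanded cluster 21, 133 of 346 cells had an Ereg UMI, with a median of 9 and a highest count of 374 in a cell, and the 66 cells with at least 10 UMIs held 93.9% of the total. A single cell gave 374 of the 635 UMIs (58.9%) of cluster 21 in the day 2 round 2 expanded library, the library with the highest level. In cluster 30 on day 4, 8 of 47 cells held all 797 UMIs, 306 of them in 1 cell. With every cell thinned to 2000 UMIs, the share of cells with an Ereg UMI in cluster 21 was 9.09% in control and 23.1% in expanded skin (14.4% and 38.8% without thinning). In cluster 8 these shares were 5.15% and 8.63% (9.29% and 14.4% without thinning). Endothelial-like cells, taken as background, had an Ereg UMI in 0.0850% of control and 0.365% of expanded cells without thinning, and in none after thinning. Median depths were 5212 and 9595.5 UMIs in endothelial-like cells and 10746.5 and 18121 UMIs in cluster 21.

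Single mice showed the same order in the summed fibroblast-like cells. Over 12 expanded mice Ereg ranged from 51.3 to 1270 CPM with a median of 129.7, and over 14 control mice from 0 to 68.1 CPM with a median of 13.1. The ranges overlapped through 1 control mouse that lay above the lowest expanded mouse. By day the expanded mice spanned 51.3 to 112.8 CPM on day 1 (3 mice), 81.1 to 132.2 CPM on day 2 (5 mice) and 145.8 to 1270 CPM on day 4 (4 mice, median 221.5). The change of the expanded-to-control difference with day was 0.63 log2 units per day (SE 0.33), given as a description. The day 4 level rests on 1 library per arm. Within clusters 21 and 8, single mice of the arms overlapped, and few mice had enough cells. In cluster 21 expanded mice had 718.4 CPM (day 1) and 118.5 CPM (day 2). Control mice there had 119.0 CPM (day 1) and 62.4 and 0 CPM (day 4). In cluster 8 control mice ranged from 3.14 to 132.2 CPM and expanded mice from 67.2 to 284.5 CPM.

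In macrophage-like cells Ereg rose. The class sum was 0.18, 0, 0, 3.46 and 0.33 CPM in control libraries and 0.48, 51.7, 42.3, 25.3 and 41.2 CPM in expanded ones. The day 1 round 1 expanded library was as low as the controls, and the other 4 expanded libraries were above all of them. edgeR's quasi-likelihood test gave a log2 fold change of 4.98 (SE 0.93, adjusted p 0.0058), with the expanded library higher in 5 of 5 pairs. In this class 6 of the 10 genes could be tested and 3 were called, against 22.9% of all 10287 genes. Without the day 1 round 1 expanded library the log2 fold change was 5.19 (adjusted p 0.0016 by edgeR), and without any 1 library it ranged from 4.35 to 7.22 (adjusted p 0.0016 to 0.026). The highest value came without the day 2 round 2 control library, where 1 mouse held 20 of the Ereg UMIs.

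The macrophage-like class was made of different clusters in the 2 arms. Cluster 10, led by Ccl8, C1qc, Cd209f and Folr2, held 47.1% of its 3358 control cells and 4.07% of its 2680 expanded cells, and cluster 3 held 44.7% and 26.5%. Cluster 5, led by Chil3, Msr1, Fcgr1, Ly6c2 and Arg1, held 8.13% and 69.4%. Of the 1198 Ereg UMIs in expanded macrophage-like cells, 1128 (94.2%) were in cluster 5, whose expanded libraries had 1.56, 75.3, 49.6, 22.6 and 62.8 CPM. Its 3 control libraries with enough cells had 0 CPM, where 3 counts would be 1.92 to 23.4 CPM. Cluster 10 was near 0 in both arms. Cluster 3 was at 0 CPM in 4 of 5 control libraries and at 0, 2.40, 8.00, 41.6 and 6.102 CPM in the expanded ones.

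Few macrophage-like cells carried Ereg, and few mice on day 4. The share of cells with an Ereg UMI was 0.0525% in control and 1.83% in expanded skin after thinning, and 0.125% and 3.66% without it. In expanded cluster 5, 107 of 1861 cells had an Ereg UMI, and the 31 cells with at least 10 held 79.6% of the UMIs. On day 4, 267 of the 269 UMIs assigned to mice came from 1 mouse (97.3 CPM), while the other expanded mice of that day had 0, 0 and 1.66 CPM. On day 2 the 7 expanded mice ranged from 0 to 91.6 CPM, and the 14 control mice of all days ranged from 0 to 9.03 CPM. The 118 expanded macrophage-like cells with an Ereg UMI had 72.3 CPM of summed fibroblast markers and the 2562 without had 98.6 CPM. Their summed macrophage markers were 6257 and 8538 CPM and their summed neutrophil markers 1361 and 791 CPM. The part of fibroblast or neutrophil RNA in this Ereg was not tested.

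Ereg was also read in a few other places. Pericyte-like or smooth muscle-like cluster 18 had 38.9, 0, 3.69, 0 and 90.7 CPM in expanded libraries, from 2 cells on day 1 and 4 cells on day 4, and at most 2.82 CPM in control ones. In unnamed cluster 13, led by Fmod and Tnmd, it was 14.3 ± 12.8 CPM in control and 18.5 ± 20.7 CPM in expanded libraries (SD, n = 5 each), which overlapped. Suprabasal keratinocyte-like cluster 25 had 10.95 ± 13.2 CPM in control and 10.4 ± 6.22 CPM in expanded libraries (SD, n = 4 each). Of its cells, 0.86% in control and 2.21% in expanded skin had an Ereg UMI after thinning (2.29% and 6.37% without).

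Areg encodes amphiregulin, a ligand released by keratinocytes and by lymphocytes in injured tissue. It was highest in T cell-like cluster 17, led by Trdc, Trdv4 and Cd7. There it was 1363, 2737, 1147, 1130 and 1141 CPM in control libraries and 413, 1068, 680, 1042 and 1447 CPM in expanded ones. The groups overlapped, and the log2 fold change of -0.77 (SE 0.31) had an adjusted p of 0.35 by edgeR. After thinning, 41.8% of the control cells of this cluster had an Areg UMI (47.3% without). T cell-like clusters 15, with Il17a, and 27, with Foxp3, held less: 424 ± 137 and 383 ± 210 CPM in control libraries, and 307 ± 229 and 249 ± 37.2 CPM in expanded ones. Neither passed the test (adjusted p 0.64 and 0.77 by edgeR).

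Areg fell in cluster 24, an ILC-like or NK-like cluster led by Gzmc and Xcl1. Its control libraries had 501.8, 735.6, 798.1, 552.0 and 435.7 CPM and its expanded libraries 309.3, 393.5, 128.6, 171.4 and 255.8 CPM. Every expanded library was below every control library, at 0.416 of the control mean. By edgeR's quasi-likelihood test the log2 fold change was -1.38 (SE 0.24, adjusted p 0.018), lower in 5 of 5 pairs. Areg was 1 of 2 of the 10 genes tested in this cluster, where 0.57% of all genes were called. Without the day 2 round 2 expanded library the adjusted p was 0.051. The share of cluster 24 cells with an Areg UMI went from 34.3% to 16% after thinning and from 44.8% to 26.5% without. Endothelial-like cells, as background, had an Areg UMI in 0.117% and 0.287% of cells without thinning, at median depths of 5212 and 9595.5 UMIs per cell against 5520 and 6955 in cluster 24. The sum of fibroblast markers had a median of 1089 CPM in the control and 106 CPM in the expanded libraries of this cluster, while Areg in fibroblast-like cells was near 1 CPM; its part was not tested.

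**Figure D3:**
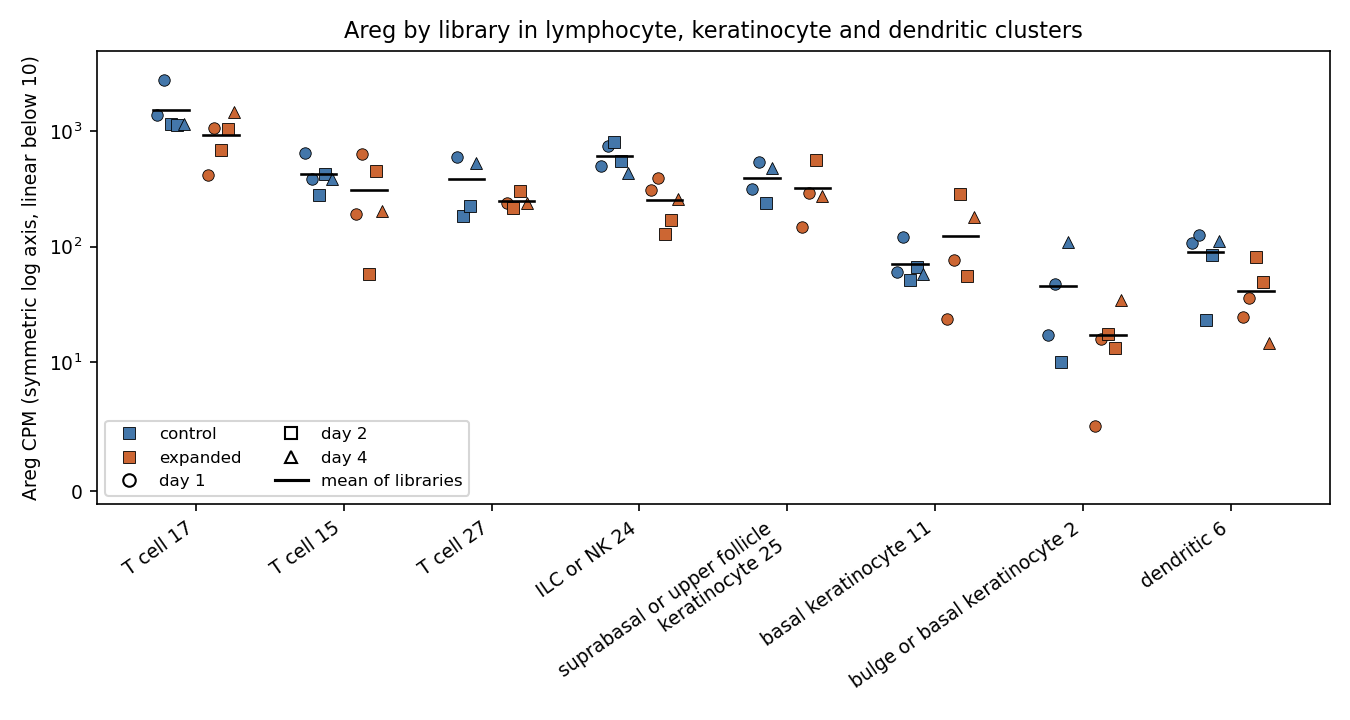
Areg in CPM (symmetric log axis, linear below 10) in lymphocyte-like, keratinocyte-like and dendritic-like clusters, with 1 point per library, colour for arm, shape for day and a bar at the mean of the libraries. In ILC-like or NK-like cluster 24 the expanded libraries (128.6 to 393.5 CPM) lie below the control libraries (435.7 to 798.1 CPM), and in the other clusters the arms overlap.

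Among keratinocyte-like clusters Areg was highest in the suprabasal one. Suprabasal or upper follicle cluster 25, with Krt1, Krt10 and Krt79, had 392 ± 138 CPM in control (SD, n = 4) and 318 ± 174 CPM in expanded libraries (n = 4). Basal cluster 11, with Krt14 and Krt5, had 60.8, 120.4, 51.1, 66.5 and 58.6 CPM in control libraries and 23.5, 76.4, 285.2, 55.3 and 179.5 CPM in expanded ones. Bulge or basal cluster 2, with Krt15 and Lhx2, had 46.1 ± 45 and 17.3 ± 10.8 CPM. None passed the test by edgeR (adjusted p 0.43, 0.64 and 0.16). With the pairs of day and round as a replicate block, Areg was lower in cluster 25 (log2 fold change -1.04, adjusted p 0.0049) and in cluster 2 (-1.46, adjusted p 0.028). In cluster 25 no pair of day 2 was complete. Dendritic-like cluster 6 had 90.7 ± 40.5 and 41.3 ± 26.1 CPM (adjusted p 0.079), and macrophage-like cells had 69.8 ± 29.1 and 87.1 ± 40.7 CPM (adjusted p 0.66), both by edgeR. By library, T cell-like cells supplied 34.1% ± 10.45 of the Areg UMIs in control and 36.99% ± 17.2 in expanded skin (SD, n = 5). A cell type's share follows how many of its cells were sorted as well as their level.

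Hbegf encodes heparin-binding EGF-like growth factor, which keratinocytes, endothelial cells and macrophages release after injury. It fell in macrophage-like cells, from 674.8, 399.0, 419.0, 103.7 and 264.7 CPM in control libraries to 77.0, 101.0, 89.6, 40.8 and 102.9 CPM in expanded ones. The lowest control library, day 2 round 2, was just above the highest expanded one, so the groups did not overlap, and the expanded library was lower in 5 of 5 pairs. edgeR's quasi-likelihood test gave a log2 fold change of -2.24 (SE 0.41, adjusted p 0.0053). Without the day 1 round 1 expanded library it was -2.09 (adjusted p 0.011), and with mice in place of libraries -1.66. Control mice ranged from 42.4 to 473 CPM (14 mice, median 178) and expanded mice from 9.08 to 117 CPM (12 mice, median 87.4), so single mice overlapped.

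Within the class, Hbegf followed cluster 10. That cluster held 84.4% of the Hbegf UMIs of control macrophage-like cells, at 844, 590.5, 584.9, 228.9 and 582.9 CPM. Only the expanded libraries of day 1 had enough of its cells, with 110.2 and 297.3 CPM. Cluster 5 held 73.0% of the expanded UMIs, with 54.6, 57.7 and 20.2 CPM in its control libraries and 37.4, 93.4, 91.7, 36.1 and 115.3 CPM in its expanded ones. Cluster 3, present in every library, had 110.4, 151.3, 103.8, 98.7 and 103.0 CPM in control libraries and 83.6, 66.1, 79.3, 69.0 and 82.2 CPM in expanded ones, with no overlap. A test of cluster 3 alone, added after the data were seen, gave a log2 fold change of -0.76 (SE 0.16, adjusted p 0.0094 by edgeR, in a cluster where 16.9% of genes were called), and an adjusted p of 0.14 over mice. The fall within cluster 3 was smaller than that of the class, and the difference between them was not tested.

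**Figure D4:**
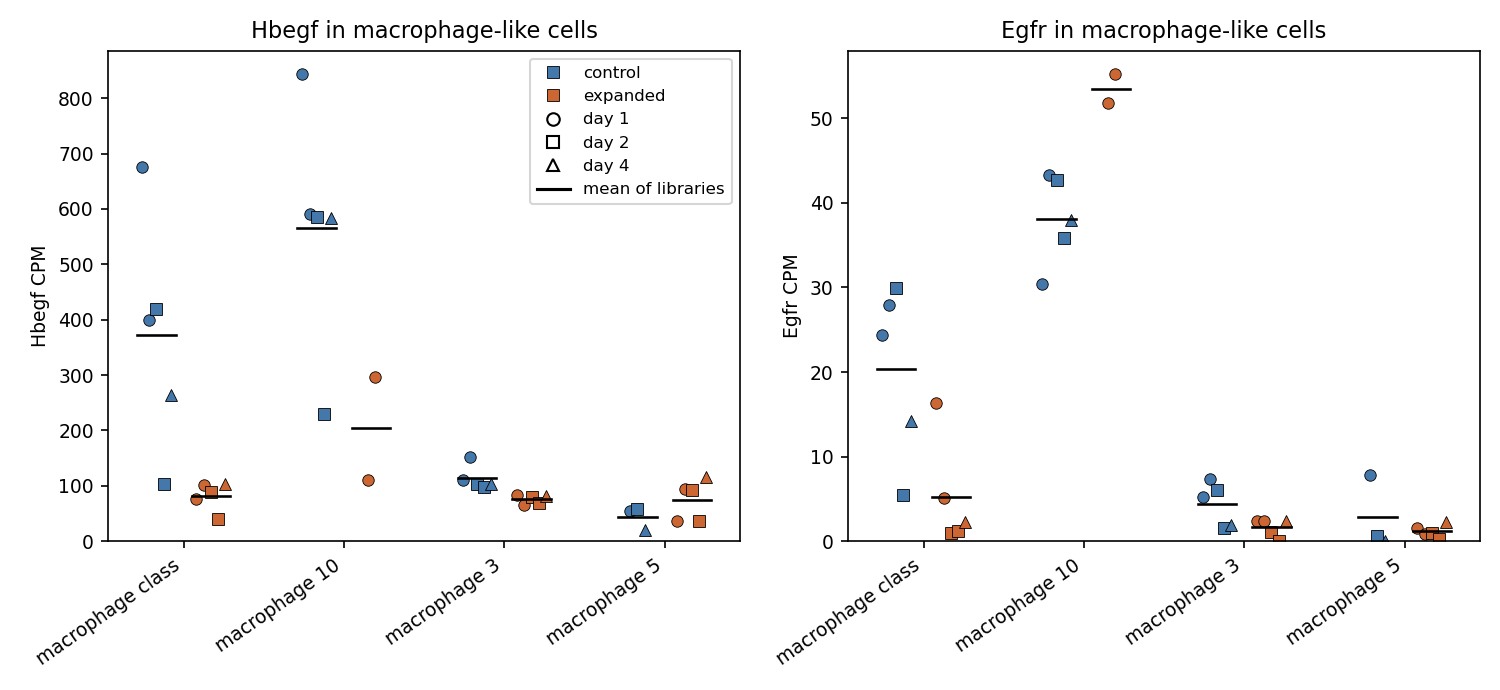
Hbegf (left) and Egfr (right) in CPM in the macrophage-like class and its clusters 10, 3 and 5, with 1 point per library, colour for arm, shape for day and a bar at the mean of the libraries. In both panels cluster 10 lies highest, and in the class the control libraries reach 674.8 CPM of Hbegf and 29.97 CPM of Egfr against 102.9 and 16.4 CPM in expanded libraries.

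In control skin endothelial-like cells had the highest mean Hbegf of the classes, and in expanded skin Schwann-like cells had the higher mean (752 against 701 CPM), a difference within the spread. Endothelial-like cells had 1144, 1149, 1056, 639 and 738 CPM in control libraries and 575, 789, 991, 417 and 734 CPM in expanded ones. The expanded library was lower in 5 of 5 pairs, while the groups overlapped. The log2 fold change of -0.52 (SE 0.24) did not pass by edgeR (adjusted p 0.17), and with the replicate block it was -0.56 (adjusted p 0.021). In this class 0 of the 4 genes tested passed without the block, where 13.3% of all genes did. After thinning, 53.2% of control and 52.04% of expanded endothelial-like cells had an Hbegf UMI (63.4% and 72.7% without). In fibroblast-like cells these shares were 3.83% and 8.75% after thinning, at median depths of 10464.5 and 12887 UMIs per cell. Bulge or basal keratinocyte-like cluster 2 had 840 ± 183 CPM in control (n = 4) and 618 ± 125 CPM in expanded libraries (n = 5), with an adjusted p of 0.23 by edgeR. Basal cluster 11 had 329 and 281 CPM, suprabasal cluster 25 had 364 and 354 CPM, and pericyte-like or smooth muscle-like cluster 18 had 538 and 440 CPM, as means of the arms; these too did not pass.

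In Schwann-like and fibroblast-like cells the mean of Hbegf was above that of controls. Schwann-like cells had 613 ± 89.8 CPM in control (n = 4) and 752 ± 278 CPM in expanded libraries (n = 5), higher in 4 of 4 pairs, with an adjusted p of 0.78 by edgeR. The sum of fibroblast-like cells was 15.7, 21.5, 21.8, 19.1 and 18.5 CPM in control libraries and 45.7, 72.0, 39.2, 45.2 and 46.5 CPM in expanded ones, a 2.57-fold difference with no overlap. Cluster 8 had 48.8, 44.9, 31.2, 42.8 and 47.8 CPM against 108.8, 83.3, 49.0, 74.7 and 56.8 CPM, a 1.73-fold difference, also with no overlap. Cluster 21 was level, with means of 26.97 and 27.3 CPM. Fibroblast-like cells carry no test here. In the sum, 34.5% of all 12783 genes passed edgeR's test, so separate arms are common among its genes.

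Tgfa, Btc and Epgn were read at low counts. Tgfa, which encodes the classic keratinocyte ligand TGF-alpha, was highest in suprabasal keratinocyte-like cluster 25, at 37.9 ± 9.58 CPM in control and 42.1 ± 10.48 CPM in expanded libraries (SD, n = 4 each). It was 26.4 ± 7.97 and 25.1 ± 6.16 CPM in basal cluster 11 and 16.5 ± 8.43 and 23.2 ± 2.69 CPM in endothelial-like cells. By library, basal keratinocyte-like cells supplied 29.4% ± 9.37 of the Tgfa UMIs in control and 38.9% ± 3.85 in expanded skin. None of the 4 clusters or classes tested passed by edgeR. In endothelial-like cells the log2 fold change was 0.49 (SE 0.27, adjusted p 0.24) and depended on the libraries: it was 0.85 (adjusted p 0.024) without the day 1 round 1 control library, 0.24 (adjusted p 0.59) without that of day 1 round 2, and 1.13 (adjusted p 0.016) over mice. Btc, which encodes betacellulin, was highest in Schwann-like cluster 26, at 67.6 ± 32.5 CPM in control and 73.6 ± 37.7 CPM in expanded libraries. Fibroblast-like cells, with a low level but many cells, supplied 70.2% ± 18.6 of the control and 31.8% ± 26 of the expanded Btc UMIs. The Schwann-like class could be tested for Btc and did not pass (log2 fold change 0.33, SE 0.40, adjusted p 0.81 by edgeR).

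Epgn, which encodes epigen, was read almost only in keratinocyte-like clusters. Its level was lower in the expanded library of every complete pair in clusters 2, 11 and 25. In basal cluster 11 it was 121, 235.6, 36.1, 83.8 and 88.1 CPM in control libraries and 24.2, 116, 29.2, 66.8 and 58.6 CPM in expanded ones. The groups overlapped, as the control libraries alone ranged from 36.1 to 235.6 CPM, and the log2 fold change was -1.03 (SE 0.39, adjusted p 0.090 by edgeR). Cluster 2 (92.0 ± 56.8 and 46.7 ± 44.4 CPM) and cluster 25 (114 ± 105 and 37.2 ± 31.8 CPM) did not pass either (adjusted p 0.29 and 0.10). With the replicate block all 3 passed: -1.71 in cluster 2 (adjusted p 0.00049), -1.09 in cluster 11 (0.018) and -2.25 in cluster 25 (0.0014). Without the block the log2 fold change in cluster 25 was -1.64. Cluster 25 lacked the day 2 round 1 control and day 2 round 2 expanded libraries, so day 2 formed no complete pair there. Cluster 2 lacked the day 2 round 1 control library. In cluster 2 the test without the block called 0 of 8 of the genes described, where 0.934% of all genes were called. Cycling follicle-like cluster 33, with Krt25, had 116 ± 71.8 CPM in 4 control libraries and 21.5 CPM in its only expanded library.

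Among the receptors, Egfr was highest in fibroblast-like cells. Cluster 19, led by Gpx3, C7 and Cxcl13, had 353 ± 89.3 CPM in control libraries. Its 38 expanded cells left no expanded library with enough of them. Cluster 30 had 163 ± 51.4 CPM in control and 179 ± 35.2 CPM in expanded libraries, cluster 1 had 126 ± 22.2 and 162 ± 36.3 CPM, and cluster 22 had 134 and 128 ± 15.8 CPM. Clusters 21 (62.0 ± 17.8 and 54.4 ± 12.97 CPM) and 8 (44.3 ± 7.08 and 39.9 ± 5.83 CPM), which held most of the Ereg, were the lowest of these. Within cluster 21 of expanded skin, cells with and without an Ereg UMI had 52.9 and 53.3 CPM of Egfr. In expanded cluster 8 these were 49.8 CPM with and 39.8 CPM without an Ereg UMI, and in control cluster 8 they were 38.6 and 47.1 CPM, so the order differed between arms. Cluster 30 was high in both genes in expanded skin, its Ereg coming mostly from day 4. Ereg and its receptor were thus read in the same clusters.

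The sum of Egfr over fibroblast-like cells was 122, 132, 164, 117 and 87.3 CPM in control libraries and 113, 96.5, 90.6, 77.7 and 68.6 CPM in expanded ones, which overlapped. Clusters 0 and 1 made up 27.5% and 21.7% of its control cells but 2.67% and 4.72% of its expanded ones. Cluster means of Egfr were higher in expanded libraries in clusters 0 (101 and 139 CPM, 1 expanded library), 1, 7 and 30. They were lower in clusters 8, 9 (98.9 and 67.7 CPM), 21 and 22. The part of the unlike cluster shares in the difference of the sums was not tested. In keratinocyte-like clusters 2, 11 and 25 Egfr was 110, 79.0 and 60.6 CPM in control and 92.4, 60.6 and 56.8 CPM in expanded libraries, as means. The lowest adjusted p of the 3 was 0.057, for cluster 11 (log2 fold change -0.46, SE 0.15, by edgeR). It passed there without the day 2 round 2 control library (-0.60, adjusted p 0.0081), over mice (-0.58, adjusted p 0.024) and with up to 20% mitochondrial UMIs allowed (-0.48, adjusted p 0.036).

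In macrophage-like cells Egfr fell. The class had 24.4, 27.97, 29.97, 5.43 and 14.2 CPM in control libraries and 16.4, 5.11, 1.00, 1.24 and 2.30 CPM in expanded ones. The expanded library was lower in 5 of 5 pairs, and the groups overlapped: the expanded library of day 1 round 1 lay above the day 2 round 2 and day 4 controls. By edgeR's quasi-likelihood test the log2 fold change was -2.60 (SE 0.58, adjusted p 0.012). Without 1 library in turn it ranged from -3.15, without the day 1 round 1 expanded library, to -1.99, without the day 2 round 1 control library. Cluster 10 held 91.7% of the 385 control Egfr UMIs of the class and 56.3% of the 87 expanded ones. In cluster 10 the level was not lower: 30.4, 43.3, 42.7, 35.8 and 37.99 CPM in control libraries against 51.8 and 55.2 CPM in the day 1 expanded ones. Fibroblast-like cells express Egfr far more than macrophage-like cells do, and the fibroblast markers summed in the macrophage-like class went from a median of 1029 CPM (299 to 2258) in control to 83.8 CPM (32.7 to 348) in expanded libraries, with 6 of 6 markers detected. Their part in the Egfr difference was not tested.

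Erbb2, the partner receptor, was low throughout. Its highest mean was in suprabasal keratinocyte-like cluster 25, with 33.3 ± 7.24 CPM in control and 46.7 ± 16.8 CPM in expanded libraries (log2 fold change 0.36, SE 0.20, adjusted p 0.32 by edgeR). Schwann-like cells had 18.7 and 17.6 CPM and bulge or basal cluster 2 had 17.7 and 13.3 CPM, as means. None of the 5 clusters or classes tested passed.

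Erbb3, the neuregulin receptor that Schwann cells and melanocytes need, was highest in Schwann-like cells, with 230 ± 56.7 CPM in control and 203 ± 44.2 CPM in expanded libraries (log2 fold change -0.23, SE 0.19, adjusted p 0.71 by edgeR). Melanocyte-like cluster 28 had 114 ± 47.5 CPM in 4 control and 174 ± 36.1 CPM in 3 expanded libraries, which overlapped. In keratinocyte-like cells Erbb3 was higher in suprabasal cluster 25 (106 ± 22.3 and 88.9 ± 6.70 CPM) than in basal clusters 11 (44.9 and 42.1 CPM) and 2 (31.1 and 20.7 CPM). None of the 5 clusters or classes tested passed for Erbb3.

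Errfi1 fell in 4 clusters: basal keratinocyte-like cluster 11, suprabasal cluster 25, dendritic-like cluster 6 and pericyte-like or smooth muscle-like cluster 18. In cluster 18 it was 1200, 1195, 616.6, 935.6 and 1098 CPM in control libraries and 589, 744.9, 422, 411.7 and 606 CPM in expanded ones. Here the lowest control library, day 2 round 1, lay among the expanded ones, and the log2 fold change was -0.97 (SE 0.15, adjusted p 0.0014 by edgeR's quasi-likelihood test). In cluster 11 it was 298.8, 216.3, 309.5, 149.4 and 265.3 CPM in control and 129.9, 127.6, 144.3, 93.5 and 123.8 CPM in expanded libraries, with no overlap (-1.07, SE 0.20, adjusted p 0.0057). Thinned to equal depth, cluster 11 had a log2 fold change of -0.88 (adjusted p 0.092), and over all alternatives it lay between -1.22 and -0.87.

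In cluster 6 Errfi1 was 629, 736, 474, 384.5 and 601 CPM in control and 175, 446, 311.5, 181 and 375 CPM in expanded libraries, lower in 5 of 5 pairs (log2 fold change -1.12, SE 0.25, adjusted p 0.015 by edgeR). In cluster 25 it was 218.8, 195.9, 125.5 and 261.9 CPM against 150.5, 88.9, 113.4 and 93.9 CPM, over the 4 libraries of each arm with enough cells (-0.96, SE 0.22, adjusted p 0.026). The call in cluster 25 was lost without any 1 of 5 libraries: the controls of day 1 round 1, day 1 round 2 and day 4, and the expanded ones of day 1 round 2 and day 4 (adjusted p 0.051 to 0.14). Of the genes described here, Errfi1 was the only one called in cluster 11 (1 of 8, against 15.8% of all genes), cluster 25 (1 of 8, against 5.68%), cluster 6 (1 of 3, against 12.6%) and cluster 18 (1 of 3, against 20.4%).

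The log2 fold change of Errfi1 was below 0 in all 14 clusters and classes tested, from -1.12 to -0.26 with a median of -0.59. Of the 2772 genes fitted in all 14, 64 (2.31%) were below 0 in all of them, 123 (4.44%) were called lower in at least 4, and 28 did both. With the replicate block bulge or basal cluster 2 (-0.75, adjusted p 0.018 by edgeR) and T cell-like cluster 17 (-0.66, adjusted p 0.031) passed as well. After thinning it was below 0 in 13 of 14 and over mice in 4 of 6, so T cell-like cluster 15 and endothelial-like cells do not hold their sign at every setting. Fibroblast-like cells, with no test, had 1335, 1242, 1102, 975.5 and 1182 CPM in control and 587, 869.3, 954.3, 786.3 and 957.1 CPM in expanded libraries, with no overlap. Macrophage-like cluster 3 had 921, 804, 694, 601 and 601 CPM against 262, 619, 393, 223 and 235 CPM. A test of cluster 3 alone, added after the data were seen, gave -1.29 (SE 0.23, adjusted p 0.0046 by edgeR).

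**Figure D5:**
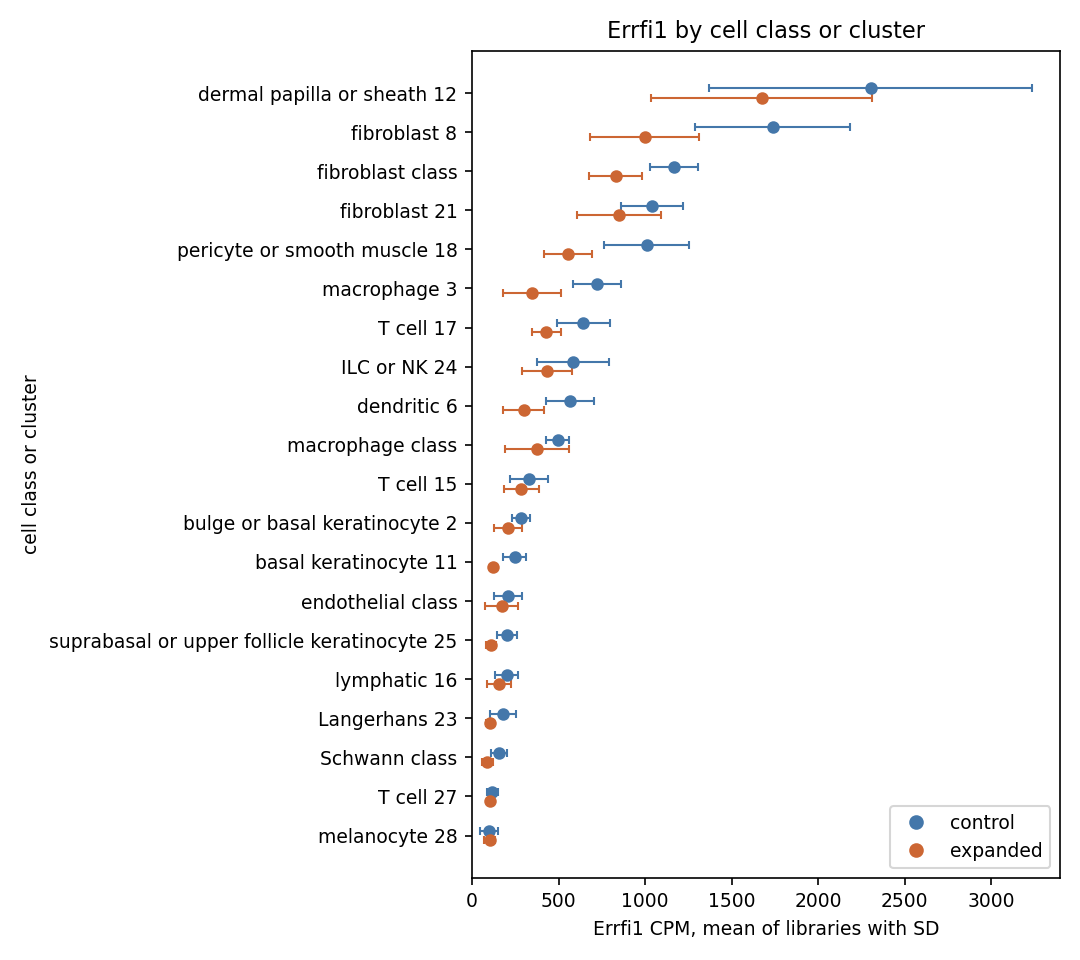
Errfi1 in CPM by cell class or cluster, with points at the mean of the libraries, bars of 1 SD, blue for control and orange for expanded skin. The expanded mean lies below the control mean in nearly all classes, for example 124 against 248 CPM in basal keratinocyte-like cluster 11 and 555 against 1009 CPM in pericyte-like or smooth muscle-like cluster 18.

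Errfi1 was highest in stromal cells and in skeletal muscle-like or satellite-like cluster 35. Its control means were 2303 ± 933 CPM in dermal papilla-like or sheath-like cluster 12 and 2027 ± 324 CPM in cluster 35 (n = 3). They were 1737 ± 448 CPM in fibroblast-like cluster 8 and 1167 ± 137 CPM over all fibroblast-like cells. The summed fibroblast markers fell from a median of 855 CPM (149 to 2349) in control to 38.3 CPM (16.2 to 623) in expanded libraries of cluster 11. In cluster 25 the medians were 1083 and 68.5 CPM, in cluster 6 they were 535 and 58.0 CPM, and in cluster 18 they were 2019 and 1239 CPM. The part of these markers in the lower Errfi1 was not tested.

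Over the 14 clusters and classes, 56 tests of the 10 genes could be made and 8 passed, 1 higher and 7 lower; 9.38% of all 97649 tests of all genes passed, and 5.19% passed as lower. With the replicate block 16 passed. Of the 8, Errfi1 gave 4, and Ereg, Hbegf and Egfr in macrophage-like cells and Areg in cluster 24 gave 1 each. At an unadjusted p below 0.05 there were 21. Leaving out 1 library also brought further tests past the threshold by edgeR. Areg passed in cluster 6 without the day 2 round 1 control library (-1.82, adjusted p 0.018) or the day 2 round 1 expanded one (-1.75, adjusted p 0.043). Epgn passed in cluster 25 without the day 2 round 2 control library (-2.04, adjusted p 0.043) or the day 2 round 1 expanded one (-2.03, adjusted p 0.044). Hbegf passed in endothelial-like cells without the day 2 round 1 expanded library (-0.78, adjusted p 0.034). Errfi1 passed in macrophage-like cells without the day 1 round 2 expanded library (-0.89, adjusted p 0.031) and over mice (-0.60, adjusted p 0.010), and in Langerhans-like cluster 23 without the day 2 round 2 control library (-1.21, adjusted p 0.026). No test of the 10 genes for a change of the difference with day passed by edgeR (0 of 85, with 8 at an unadjusted p below 0.05), and 0.00268% of all such tests passed.

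Other genes of the pathway were taken from a list of 38, of receptors' partners, sheddases, feedback inhibitors and early targets. In basal keratinocyte-like cluster 11, 33 were tested, 2 rose and 11 fell by edgeR, where 15.8% of all genes passed in either direction, with a median log2 fold change of -0.33 against -0.01 for all genes. Those that rose were the transcription factors Etv4 (1.04) and Etv5 (0.89), which ERK signalling induces, and those that fell included Dusp4 (-2.26), a phosphatase of ERK, and Phlda1 (-1.24). In suprabasal cluster 25, 28 were tested and 6 fell, where 5.68% of all genes passed, among them Plaur (-2.29), the urokinase receptor, and Fosl1 (-1.39), an AP-1 subunit. In macrophage-like cells 7 of 29 passed, a share near the 22.9% of all genes there, which says nothing particular of the list. Dusp4 (1.51) and Spry2 (1.15) rose, and 5 fell, among them Spry1 (-3.00) and Rhbdf1 (-1.59), a partner of the sheddase ADAM17. In endothelial-like cells 6 of 27 fell, where 13.3% of all genes passed, among them Epha2 (-0.94) and the adaptor Gab1 (-0.87). Lymphatic-like cluster 16 had 5 of 25 lower (12.3% of all its genes were called in either direction), and in clusters 18, 6 and 2 the lower ones were 2 of 30, 1 of 24 and 1 of 32. Of all genes 20.4%, 12.6% and 0.934% passed there, so the counts in clusters 18 and 6 are no result about the list.

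Of the same list none passed by edgeR in the Langerhans-like cluster 23, T cell-like clusters 15, 17 and 27, cluster 24 or Schwann-like cells, with 5, 6, 2, 0, 2 and 4 at an unadjusted p below 0.05. In these, in the same order, 5.45%, 0.418%, 0.363%, 0.138%, 0.57% and 0.139% of all genes passed. In the sum of fibroblast-like cells, as a description, 9 of 34 list genes had every expanded library above every control library and none the reverse. Of all 12783 genes fitted, 16.8% had every expanded library above and 4.86% below every control library. Spry4, a feedback inhibitor of ERK signalling, went from 10.9 ± 3.02 to 31.2 ± 6.33 CPM, Etv4 from 1.30 ± 0.36 to 6.97 ± 3.77 CPM and Ier3 from 628 ± 45.3 to 1222 ± 238 CPM (SD, n = 5 each). The median log2 difference of the list was 0.09 against 0.02 for all genes. Genes of the list with a negative difference in the sum included Adam17 (-0.64) and Lrig1 (-0.53). The sum mixes clusters in unlike shares: clusters 8, 21, 22 and 30 made up 15.3% of its control and 71.2% of its expanded cells. Within clusters 8 and 21 the log2 difference was 0.27 and 0.22 for Spry4 and 0.74 and 0.59 for Ier3. For Etv4, fitted in cluster 21 only of these, it was 0.65. Other list genes that were positive in the sum turned negative within clusters. Etv5 was 0.86 in the sum, -0.33 in cluster 8 and -0.87 in cluster 21. Spry1 was 0.45, -0.19 and -0.63, and Dusp6 was 0.89, 0.21 and -0.24, in the same order. Also positive in the sum were Nrg1 (1.79) and Dusp4 (1.40).

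Over 293 sums of a cluster in a library, the genes whose log2(CPM + 1) was most like that of each gene were listed by Pearson's r among 14248 genes. The sums share libraries and depth, and r is a description. For Ereg they were Dio2 (0.613), Chrna1 (0.603) and Cemip (0.600), for Areg Trbc2 (0.772), Tnfrsf18 (0.769) and Emb (0.749), and for Hbegf Cav2 (0.740), Cd151 (0.714) and Hspb1 (0.693). Egfr was most like Irx2 (0.834), Smoc2 (0.797) and Hoxc8 (0.791), Erbb3 most like Tfap2b (0.867), Ppp1r14c (0.797) and Myh14 (0.789), and Errfi1 most like Dpt (0.658), Dse (0.657) and Medag (0.656).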

How the data were processed

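Per the submitters' processing notes, the authors made UMI counts per gene and cell with Cell Ranger 6.1.2 against mm10; the deposited counts are raw. Hashtag counts were deposited for 8 of the libraries and used to assign 23348 cells to mice. Of 55174 barcodes, 47251 had 200 or more genes, 500 or more UMIs and no more than 10% of UMIs in mitochondrial genes. Doublets were removed as the highest Scrublet scores, 0.8% per 1000 cells, plus hashtag multiplets (2459 cells); Scrublet's own threshold marked under 0.5% of cells in some libraries. Cells were clustered with scanpy 1.11.5 (2000 variable genes, 30 components, Leiden resolution 1 by leidenalg 0.10.2). A cluster or class was tested where each arm had at least 4 libraries with 20 cells, by edgeR 4.0.16 (R 4.3.3) quasi-likelihood on summed counts with day and arm, adjusted by Benjamini-Hochberg over all its genes at 0.05. CPM was computed from the deposited counts. The labels give a sequencing round to each library. Deviations of control and expanded libraries of the same day and round correlated between -0.13 and 0.37 over clusters (0.24 and 0.21 in macrophage-like cells), and the fit with the pair as a replicate block is given where it changes a call. Alternatives were DESeq2 1.42.0, no low-count filter, thinned counts, sums per mouse and leaving out each library. Named were the 10 members, and pathway genes with the largest changes among those called. The pathway genes named in fibroblast-like cells, which carry no test, fall outside this rule. The members and the lists were chosen with earlier results of these data known.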

Additional observations from a re-analysis of the deposited data

Results flagged for a closer look

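Among 108 groups of 4 or 5 libraries checked, 9 had a library far from the rest by Dixon's criterion, where chance gives about 1 in 20. For Ereg these were the day 2 round 2 control library in macrophage-like cells (3.46 CPM) and in macrophage-like cluster 3 (5.54 CPM), and the day 2 round 2 expanded library in cluster 3 (41.6 CPM). For Areg they were the day 1 round 2 control library in T cell-like cluster 17 (2737 CPM) and in basal keratinocyte-like cluster 11 (120 CPM). For Hbegf they were the day 1 round 2 control library in cluster 3 (151 CPM) and the day 1 round 2 expanded library in the sum of fibroblast-like cells (72.0 CPM). For Tgfa it was the low day 2 round 2 control library in cluster 11 (12.5 CPM), and for Egfr the high day 1 round 1 expanded library in macrophage-like cells (16.4 CPM).

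Levels of Hbegf lay on opposite sides of the control in different cells in every pair of the same day and round that could be formed, though of the tested cells it passed in macrophage-like cells only (adjusted p 0.78 in Schwann-like cells, 0.23 in cluster 2 and 0.17 in endothelial-like cells by edgeR). The ratio of expanded to control means was 1.23 in Schwann-like cells (higher in 4 of 4 pairs) and 2.57 in the sum of fibroblast-like cells (5 of 5). It was 0.735 in bulge or basal keratinocyte-like cluster 2 (lower in 4 of 4 pairs), 0.742 in endothelial-like cells (5 of 5) and 0.221 in macrophage-like cells (5 of 5). With clusters remade at resolution 2 the fold change in cluster 2 turned to the other side. The difference between these cells was not tested.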

How the results depend on the processing

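The 8 passing tests became 22 with no low-count filter, 16 with the replicate block and 6 to 11 without 1 library in turn. Areg in cluster 11 ranged from -0.18 (without the day 2 round 1 expanded library) to 0.91 over the left-out libraries and was -0.27 thinned and -0.17 over mice. Hbegf in cluster 2 turned to 0.079 with clusters remade at resolution 2 and mapped by majority, a mapping chosen after seeing the data in place of naming by markers, which was not run. Btc in Schwann-like cells ranged from -0.10 (without the day 2 round 1 expanded library) to 0.61. Errfi1 turned to 0.038 (thinned) and 0.19 (over mice) in cluster 15 and to 0.0045 (over mice) in endothelial-like cells. Thinned levels in cluster 25 were 50.1 CPM for Tgfa in control and 48.4 CPM for Erbb2 in control libraries. At equal cell numbers, fibroblast-like cells gave 12.5% of control and 60.02% of expanded Ereg UMIs and 8.85% and 4.15% of Btc UMIs, and basal keratinocyte-like cells 23.05% of expanded Tgfa UMIs. Without thinning, shares of cells were 14.4% and 38.8% (Ereg, cluster 21), 9.29% and 14.4% (cluster 8), 3.66% (expanded macrophage-like), 47.3% (Areg, control cluster 17) and 63.4% (Hbegf, control endothelial-like). Without 1 library in turn, levels ranged over 151 to 242 CPM (Ereg, expanded fibroblast-like), and in control skin 1195 to 1597 (Areg, cluster 17), 894 to 1022 (Hbegf, endothelial-like), 34.6 to 42.2 (Tgfa, cluster 25), 31 to 47.7 (Btc, Schwann-like), 82.3 to 132 (Epgn, cluster 11), 115 to 134 (Egfr, fibroblast-like), 30.7 to 36.5 (Erbb2, cluster 25), 205 to 246 (Erbb3, Schwann-like) and 1125 to 1215 CPM (Errfi1, fibroblast-like). The cause was not tested. Day 4 rests on 1 library per arm, and Btc and Tgfa on few UMIs.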

Other observations

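Unnamed cluster 36, with Mcpt8 and Il4 among its leading genes, had the highest Areg level of any expanded library, 2352 CPM on day 2 round 1, where 174 of the 185 UMIs were in 1 of 21 cells. The day 2 round 2 expanded library of this cluster had 71.6 CPM. Skeletal muscle-like or satellite-like cluster 35 had enough cells in control libraries only. It had Ereg at 70.6, 162.3 and 33.5 CPM on day 1 round 2, day 2 round 2 and day 4. In fibroblast-like cluster 7, Egfr was 63.4 ± 13.3 CPM in 5 control and 96.6 ± 9.72 CPM in 3 expanded libraries, and Btc was 10.9 ± 4.37 and 4.42 ± 1.70 CPM. Both are given as a description with no test.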
